A study of Rattus norvegicus with 21 samples.

Results

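The regions described here are 34445 tiles of 250 bp in the rat genome that hold few measured CpGs, lie away from CpG-dense tiles and are methylated at an intermediate level in dorsal striatum. They were chosen from 140054 autosomal tiles with at least 2 CpGs measured in each of 21 libraries, of which they make up 24.6%; 515917 tiles held a measured CpG in at least 1 library. A chosen tile had 2 to 7 CpGs listed in any library, a mean level of 20% to 80% over the 6 unlesioned libraries, and no tile of 8 or more CpGs starting within 2000 bp. The unlesioned levels therefore chose the tiles, and every comparison with unlesioned samples below is a description. All 34445 tiles could be tested between the lesioned groups. The CpG number counts CpGs listed with at least 10 reads, not the CpGs of the genome sequence.

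Bisulfite converts unmethylated cytosine so that it is read as T, and the share of reads that keep C is given as the methylation level; other modified forms of cytosine that keep C were not told apart. All samples were dorsal striatum of wild-type Sprague Dawley rats aged 120 days, and each library is 1 labelled sample. Unlesioned saline (n = 6) had no lesion, lesioned saline (n = 8) had 6-hydroxydopamine, a toxin of catecholamine neurons, placed in the left medial forebrain bundle, and lesioned L-DOPA (n = 7) had the same lesion and 6 mg/kg of the dopamine precursor L-DOPA every day for 7 days. The protocol gives 3 weeks of recovery after the lesion for both lesioned groups, and tissue taken 3 h after the last dose of L-DOPA. No label names the animal behind a sample, so each p-value rests on the spread among the labelled samples. Nor is it stated if unlesioned tissue was taken from separate animals or from the intact side of lesioned ones.

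In mammalian tissue most CpGs outside CpG islands are methylated, while CpG islands are kept unmethylated. CpG-poor stretches of reduced methylation away from islands are a class in which distal regulatory elements such as enhancers are often found. A level measured in a tissue is an average over cells and over both alleles, so an intermediate value can stand for a mixture of methylated and unmethylated copies. In a bulk sample, a change in the share of cells of a type and a change of methylation within cells cannot be told apart. No mark of enhancers, accessibility or transcription was used here, so whether the tiles are enhancers was not tested, and they are called isolated intermediate tiles. No rn5 genome or gene annotation was used either: positions are those of the files in rn5, and whether a tile lies in a gene, exon, intron or UTR is not stated.

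Libraries listed 978694 to 1291334 CpGs with a median coverage of 37 to 70 reads per cytosine. The isolated intermediate tiles had a median of 181 reads per library, summed over their CpGs (5th to 95th percentile of tiles 59 to 634), and 14597 of them had at least 100 reads in every library. The deposited library numbers form 2 runs of unstated meaning: series 1 with lesioned saline replicates 1 to 6 and the first 3 of L-DOPA, and series 2 with 12 libraries, which include the 6 unlesioned ones. In 3 libraries, unlesioned replicate 1 and L-DOPA replicates 3 and 7, reads were concentrated in CpG-dense tiles. The read ratio, which divides the median reads of tiles with at least 15 CpGs by those of tiles with 2 or 3, was 30.2 to 33.6 in these libraries, against 13.7 to 24.7 in the other libraries. Group comparisons and the spread between libraries are given with and without these 3 libraries.

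The intermediate level held in the lesioned libraries, whose coverage entered the rule but whose methylation did not. The mean over lesioned saline libraries lay at 20% to 80% in 32320 tiles (93.8%), under 20% in 701 and over 80% in 1424, and the mean over L-DOPA libraries lay at 20% to 80% in 32358 (93.9%). Across tiles, the level that chose them correlated with the lesioned saline mean at r = 0.973 and with the L-DOPA mean at r = 0.965 (n = 34445 tiles, which share libraries and are not replicates). In single libraries the level strayed more: 16087 tiles (46.7%) stayed at 20% to 80% in every one of the 15 lesioned libraries, and 18845 (54.7%) in every one of the 13 without concentrated reads. Tiles were found throughout the permitted range and rose in number towards its upper end, from 4004 at 20% to 30% to 8994 at 70% to 80%. The lesioned saline means were 54.1% to 54.7% for tiles of 2 to 7 CpGs. The rule admits only levels of 20% to 80% and so holds such means near the middle. They say little on whether level depends on CpG number. Most tiles held few CpGs: 11320 held 2 and 1377 held 7.

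The limits of the rule cut through a continuous range. At the lower limit, a tile just inside, chr9:17897251-17897500, had a level of 20% ± 10.3 (SD, n = 6) and a tile just outside, chr1:81953001-81953250, 20% ± 2.79. At the upper limit, chr5:154664251-154664500 lay just inside at 80% ± 7.88 and chr7:51410251-51410500 just outside at 80% ± 16.

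An intermediate tile can hold CpGs that are each intermediate, or a mosaic of fully methylated and unmethylated CpGs. Over lesioned saline libraries, 77.8% of the 110895 CpGs of these tiles had a mean of 20% to 80%, 7.48% lay under 20% and 14.7% over 80%. In 19027 tiles (55.2%) every CpG was itself at 20% to 80%. The range between the lowest and the highest CpG of a tile had a median of 19.4 points (5th to 95th percentile 2.20 to 65.3) and was under 10 points in 9120 tiles (26.5%). In 1325 tiles (3.85%) a CpG under 20% stood beside one over 80%. Intermediate tiles of 2 to 7 CpGs that do lie within 2000 bp of a dense tile (n = 4564) gave 50.1% with every CpG intermediate, 21.3% with a range under 10 points and 2.76% with both extremes.

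The steadiest tiles named here were mosaics. The 3 tiles with the smallest SD over the 15 lesioned libraries, among tiles with at least 100 reads in every library, were chr14:44376001-44376250 (SD 0.598 points), chr2:180352001-180352250 (0.674 points) and chr13:29032751-29033000 (0.780 points). The chromosome 14 tile ran from 64.6% to 66.2% over lesioned saline libraries (median 65.4%), from 64.6% to 66.3% over L-DOPA libraries (median 66.0%) and from 62.8% to 66.2% over unlesioned libraries (median 65.3%). Its 3 CpGs lie within 16 bp. In lesioned saline those at 44376157 and 44376169 averaged 98.6% ± 1.53 and 94.7% ± 1.75 (SD, n = 8), and the CpG at 44376173 averaged 3.76% ± 2.06. On chromosome 2, the CpGs at 180352082, 180352105 and 180352113 were at 93.4% or more in every library of all 3 groups, and the CpG at 180352131 was at 2.35% or less. On chromosome 13, CpGs at 29032836 and 29032846 were at 94.6% or more and those at 29032853 and 29032873 at 5.31% or less in every library. An average near 65%, 73% or 49% in these tiles thus described no single CpG of theirs.

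The largest ranges between CpGs had the same form. At chr2:57294001-57294250 the CpGs at 57294020 and 57294045 averaged 0.128% and 0.498% in lesioned saline and the CpG at 57294059 averaged 90.5%, over 39 bp from the first to the last. At chr12:41431501-41431750 the CpG at 41431528 was at 0% in every library and the CpG at 41431533, 5 bp away, averaged 99% ± 2.72 in lesioned saline and 97% ± 3.16 under L-DOPA. The median reads behind the CpG at 0% were 39 per lesioned saline library and 54 per L-DOPA library. At chr6:137972251-137972500 a CpG at 0.489% stood 46 bp from one at 98.5%. Whether the sampled rats carry the CpGs of the reference at these positions was not tested.

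Tiles without such mosaics were also found, by the rule of the smallest range among tiles of 4 or more CpGs. At chr20:46410501-46410750 the CpGs measured in at least 4 lesioned saline libraries, at 46410607 and 46410736, both averaged 24.2%. At chr5:120731501-120731750 the CpGs at 120731573 and 120731588 averaged 45.9% and 46.0%, and at chr10:62390251-62390500 those at 62390251 and 62390275 averaged 46.5% and 46.6%. Each of these tiles rests on 2 such CpGs, since their other CpGs were listed in 3 or fewer lesioned saline libraries. On chromosome 5 the other CpGs, at 120731599 and 120731612, averaged 87% and 86.7% in the 3 libraries that listed them, so an even level is shown there for the first pair alone.

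Neighbouring CpGs of a tile differed more the farther apart they lay. The median difference between neighbours was 7.63 points at 2 to 10 bp (17001 pairs), 9.20 points at 11 to 25 bp, 11.4 points at 26 to 50 bp, 13.2 points at 51 to 100 bp and 14.7 points beyond 100 bp. The correlation between neighbours across pairs fell from r = 0.612 at 2 to 10 bp to r = 0.392 beyond 100 bp; pairs share libraries and, when close, reads. Intermediate tiles beside a dense tile ran from 9.02 to 16.1 points and from r = 0.693 to 0.433 over the same separations. The strands of a CpG could be compared for 8718 of 101703 CpGs, for which both strands were listed in all 8 lesioned saline libraries: r was 0.845 across CpGs, the median difference 4.91 points, and 588 (6.74%) differed by more than 20 points.

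**Figure D1:**
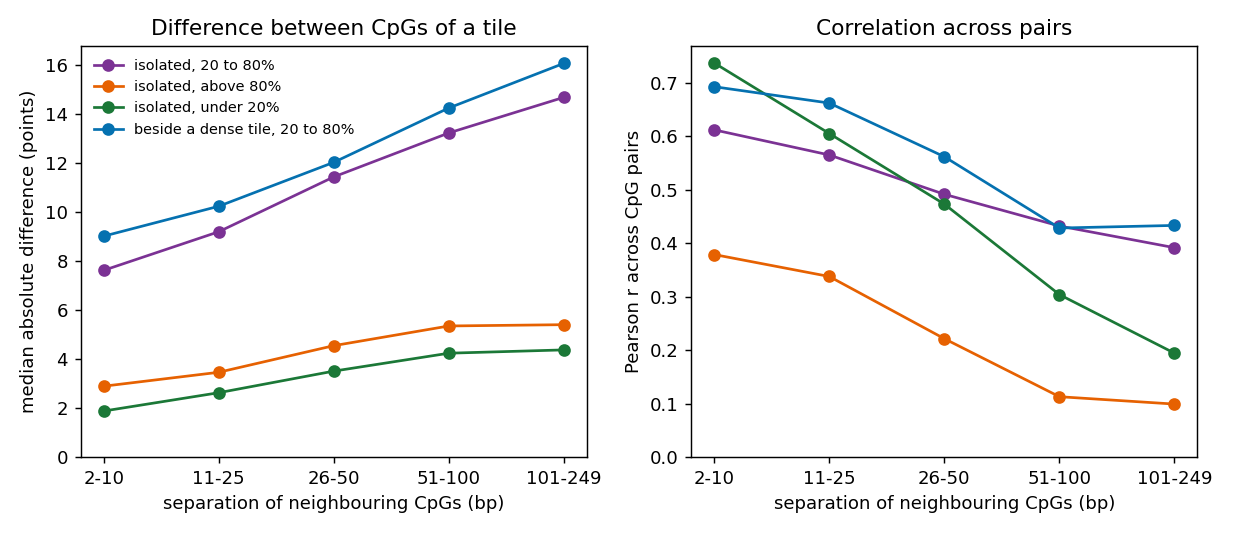
Median absolute difference in points (left, axis from 0) and Pearson correlation across pairs (right) between neighbouring CpGs of the same tile, by their separation in bp, from means over lesioned saline libraries, for isolated tiles at 20 to 80%, above 80% and under 20% and for intermediate tiles beside a dense tile. In the isolated intermediate tiles the difference went from 7.63 points at 2 to 10 bp to 14.7 points beyond 100 bp, and the correlation from 0.612 to 0.392.

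Most of the tiles stood alone among the tiles measured in all libraries. The nearest dense tile started at a median of 31000 bp (5th to 95th percentile 3500 to 329150 bp), and 18497 tiles (53.7%) had no other tile measured in all libraries within 2000 bp. With tiles joined where their starts lay at most 1000 bp apart, 25407 (73.8%) remained single, 3670 runs held 2 tiles, 453 held 3, 68 held 4, 11 held 5 and 2 held 6. Only tiles measured in all libraries could be joined, so a single tile may have an unmeasured neighbour of intermediate level. The lesioned saline mean was 53.0% for 3316 tiles at up to 5000 bp from a dense tile. It was 55.1% for 7291 tiles beyond 100000 bp. By chromosome, the tiles made up 22.5% to 27.7% of the common tiles and averaged 53.6% to 55.5%. The rule admits only intermediate levels and so holds means of this kind near the middle. The means therefore say little on whether level depends on distance or chromosome.

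Where a directly adjacent tile was measured, it was mostly intermediate too. At 250 bp, 71.2% of 10168 neighbours had a lesioned saline mean of 20% to 80%, 9.19% were under 20% and 19.6% over 80%, and the levels of a tile and its neighbour correlated at r = 0.598 across tiles. At 1000 bp the intermediate share was 47.4% (r = 0.165) and at 2000 bp 45.8% (r = 0.104). Neighbours of isolated tiles above 80% were intermediate in 19.4% at 250 bp and in 40% at 2000 bp, so the 2 shares approached each other with distance. Neighbours of intermediate tiles beside a dense tile went the other way, from 60.3% at 250 bp to 22.7% at 2000 bp, where 64.9% were under 20%. Neighbours within 2000 bp of an isolated tile hold fewer than 8 CpGs by the rule, and the adjacent tiles of a run are both counted.

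**Figure D2:**
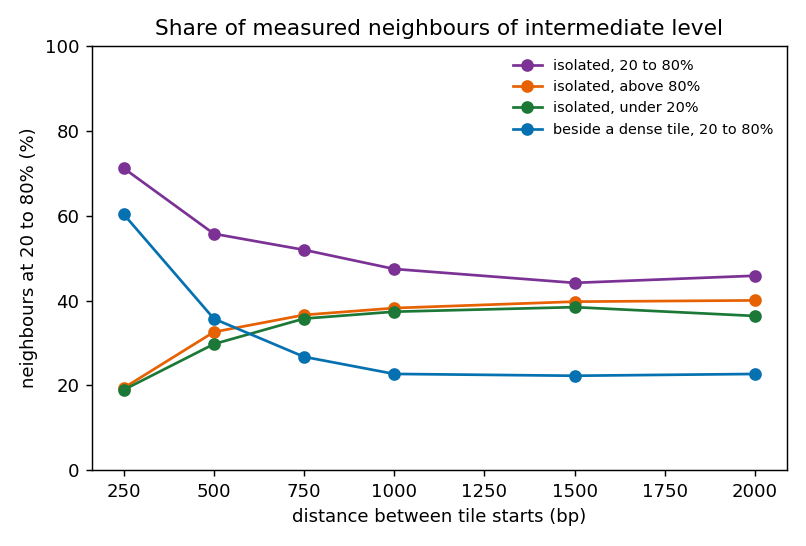
Share in percent of measured neighbouring tiles whose mean over lesioned saline libraries was 20 to 80%, by the distance between tile starts in bp, for the isolated intermediate tiles, isolated tiles above 80% and under 20%, and intermediate tiles beside a dense tile. The share fell from 71.2% to 45.8% around the isolated intermediate tiles and from 60.3% to 22.7% around those beside a dense tile, and rose from 19.4% to 40% around isolated tiles above 80%.

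The longest runs joined tiles of clearly different levels. On chromosome 20, 6 tiles between 32175251 and 32177750 had lesioned saline means of 43.4% ± 13.7, 73.7% ± 2.14, 38.0% ± 6.10, 35.0% ± 4.54, 34.7% ± 4.26 and 27.9% ± 4.64 (SD, n = 8), and the L-DOPA means were 35.9%, 77.1%, 38.3%, 34.4%, 30.6% and 29.6%. The second tile, chr20:32175751-32176000, was thus the highest of the run in both groups, and all its values (69.6% to 81.8% over the 15 lesioned libraries) lay above those of the other 5 tiles. On chromosome 3, 6 tiles between 168471751 and 168475000 went from 41.7% ± 3.22 and 28.7% ± 5.50 through 47.8% ± 6.36 to 76.9% ± 5.85, 78.5% ± 6.52 and 69.8% ± 4.22. The third run, 5 tiles on chromosome 1 between 151560251 and 151562250, averaged 70.7%, 74.7%, 56.8%, 74.8% and 74.8%. Its lowest tile also had the fewest reads, a median of 51 per library, and the largest SD, 12.6 points.

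Levels of the isolated intermediate tiles varied widely between libraries of the same group. The SD over the 8 lesioned saline libraries had a median of 6.88 points (5th to 95th percentile 3.06 to 13.5), 1.81 times what independent counts would give in the median tile. It was 3.05 points in isolated tiles above 80% (1.40 times), 2.62 points in isolated tiles under 20% (1.53 times) and 6.47 points in intermediate tiles beside a dense tile (1.78 times). Counts are reads summed over the CpGs of a tile, and a read that covers several CpGs is counted at each. The CpGs of 36.7% of the isolated intermediate tiles span up to 50 bp. A ratio above 1 can thus arise from shared reads without a difference between libraries, and their part was not tested. From lowest to highest of the 15 lesioned libraries, the median tile spanned 28.3 points, and 2263 tiles (6.57%) spanned more than 50. Over the 13 without concentrated reads the median span was 23.3 points, and 706 tiles (2.05%) spanned more than 50. In the model described below, the median dispersion (1 where counts are independent) was 5.24 for these tiles, 4.88 for intermediate tiles beside a dense tile and 3.31 for all tested tiles. Shared reads raise the dispersion too.

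Intermediate tiles near a dense tile are the closest comparison, and 3 measures of disorder were taken in each of the 15 lesioned libraries. The mean distance of a tile from the average of the other libraries of its group was 7.35 ± 1.86 points (SD, n = 15) in isolated tiles and 6.79 ± 1.41 points in tiles beside a dense tile, 0.557 points more in isolated tiles and more in 15 of 15 libraries (exact sign-flip permutation p = 6.1e-05, the smallest possible, adjusted 9.16e-05 over 3 measures, two-sided). Each library is part of the averages that the others of its group are set against. The 15 values are therefore not independent, although the permutation takes them to be. With each library centred on its own mean the distance was 0.412 points more in isolated tiles, and without L-DOPA replicates 3 and 7 it was 0.300 points more. Isolated tiles also had fewer reads (a median of 181 against 194) and a larger counting SD (3.80 against 3.66 points). Their part in this difference was not tested at matched depth. The difference was 0.539 points in tiles with 100 reads in every library and 0.553 points with at least 20 reads per CpG. Averaged over 6 bins of level it was 0.448 points and over CpG numbers 0.510 points, settings chosen after seeing the data. By level, the median SD over lesioned saline libraries was larger in isolated tiles except at 50% to 60% (7.86 against 7.99 points). Another measure was the difference to the directly following tile, taken only where that tile was measured in all libraries. It was 17.3 ± 0.777 points against 18.1 ± 0.301, a difference of −0.880 points. Isolated tiles were higher in 2 of 15 libraries (exact permutation p adjusted 0.000854). For tiles beside a dense tile the following tile could itself be dense, which the rule excludes for isolated tiles. The range of CpG levels within a tile was 28.0 ± 1.60 points against 29.5 ± 1.50, less in 15 of 15 libraries (exact permutation p adjusted 9.16e-05). This last difference, −1.59 points, turned to 0.145 points when tiles were averaged within each CpG number from 2 to 7 (exact permutation p = 0.0991; a setting chosen after seeing the data), so that it was not shown between tiles of equal CpG number.

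A few tiles owed their spread to a single CpG. The largest SD over lesioned libraries among tiles with 100 reads in every library belonged to chr13:57914751-57915000 (24.6 points, 2 CpGs). Its CpG at 57914794 was at 88.6% or more in every library. Its CpG at 57914754 stood at 0% in unlesioned replicate 1 and lesioned saline replicate 2 and at 1.0% in L-DOPA replicate 6. It stood at 41.0% to 54.3% in unlesioned replicates 2, 4 and 6, lesioned saline replicates 3, 6 and 8 and L-DOPA replicate 7, and at 94.4% or more in the remaining 11 libraries, with at least 116 reads in each. The values thus fell near 3 levels, each found in all 3 groups.

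On chr1:252924751-252925000 (SD 21.4 points, 2 CpGs) the CpG at 252924778 was at 84.1% in unlesioned replicate 6 and 82.5% in lesioned saline replicate 8. It was at 40% in lesioned saline replicate 4 and 41.4% in L-DOPA replicate 2, and at 0.225% or less in the other 17 libraries, with at least 444 reads in each. The CpG at 252924842, 64 bp away, ran from 60.7% to 80.4% with no such separation. Among 48550 CpGs of these tiles with at least 30 reads in all 15 lesioned libraries, the SD of a CpG had a median of 8.32 points (95th percentile 14.3), and 82 CpGs in 81 tiles exceeded 25 points, a limit chosen after seeing the data. In 78 of the 79 such tiles with a further CpG of that depth, exactly 1 CpG exceeded the limit, and the other CpGs of those tiles had a median SD of 5.28 points. In 24 of the 82 CpGs every lesioned value lay within 15 points of 0%, 50% or 100%, as it did in 2807 (5.78%) of all 48550; the limit of SD itself favours such values, and the 15 points were chosen after seeing the data. Whether these positions are a CpG in every animal was not tested, and where one is not, its percent does not measure methylation.

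A different pattern was seen at chr7:137647501-137647750 (SD 21.9 points, 6 CpGs), where the CpGs moved together. Lesioned saline libraries ran from 18.2% to 81.5% (median 54.0%), L-DOPA libraries from 5.75% to 65.6% (median 51.1%) and unlesioned libraries from 16.9% to 79.9% (median 66.8%). The lowest values of the groups were those of unlesioned replicate 1, lesioned saline replicate 2 and L-DOPA replicate 7, with L-DOPA replicate 3 next at 11%, and in each of these 4 libraries the CpGs at 137647545, 137647581 and 137647591 were all at 17.3% or less. In the other 17 libraries these CpGs lay between 25.7% and 84%.

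In 7 tiles, chosen after seeing the values, a lesioned library under 10% and another over 90% were found. At chr3:129550751-129551000 (2 CpGs, SD 32.7 points over lesioned libraries) lesioned saline libraries ran from 8.40% to 87.3% (median 58.0%), L-DOPA libraries from 10.6% to 93.4% (median 15.8%) and unlesioned libraries from 10.8% to 89.0% (median 65.4%). In 4 of the 7 tiles L-DOPA replicate 7, one of the libraries with concentrated reads, was at 0%. It was also the low library at chr10:30988501-30988750, at 9.76%. In the 4 tiles at 0% its reads, summed over the CpGs of a tile, gave 80 counts at chr3:171182751-171183000 and 30 at chr3:174564501-174564750. They gave 22 counts at chr6:136549501-136549750 and 28 at chr8:44728501-44728750. Were each count a separate read, these would allow levels of up to 3.75%, 10%, 13.6% and 10.7%. At the first of these tiles lesioned saline replicate 2 was also at 0%, with 55 counts (up to 5.45%). These limits, from 3 counts, cover counting error only, since reads amplified by PCR are not independent molecules. A read that covers several CpGs is also counted at each of them, so the limits are too narrow where this occurs. At the other extreme of precision, the tile of the most reads, chr20:7394001-7394250 (7 CpGs, a median of 6873 reads), ran from 29% to 37% in lesioned saline and from 30.7% to 39.1% under L-DOPA.

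L-DOPA against saline after the lesion asks what the drug changed in lesioned striatum, and the levels of neither group entered the choice of the tiles. The mean over all isolated intermediate tiles ran from 49.4% to 57.4% over lesioned saline libraries (median 55.2%) and from 43.9% to 57.6% over L-DOPA libraries (median 54.8%). The 2 lowest of these values were those of L-DOPA replicates 7 (43.9%) and 3 (45.0%), the libraries with concentrated reads, and the other 5 L-DOPA libraries lay at 54.7% to 57.6%, within or just above the lesioned saline range. The group means were 52.6% ± 5.64 (SD, n = 7) and 54.4% ± 2.42 (n = 8), a difference of −1.86 points (SE 2.30, two-sided exact permutation p = 0.402, adjusted 0.443 over 4 tests), smaller than the spread between libraries. Within series 1 the difference was −1.16 points (3 against 6 libraries, exact permutation p = 0.762) and within series 2 −3.23 points (4 against 2, exact permutation p = 0.400, where 0.133 is the smallest possible). Without the libraries with concentrated reads it turned to 1.39 points higher under L-DOPA (SE 1.00, exact permutation p = 0.249).

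The isolated intermediate tiles did not differ from similar tiles in this comparison beyond the spread. Taken against isolated tiles above 80% within each library, the L-DOPA difference was −1.29 points (SE 1.71, exact permutation p = 0.443), against isolated tiles under 20% −1.60 points (SE 1.84, exact permutation p = 0.372), and against intermediate tiles beside a dense tile −0.485 points (SE 0.380, exact permutation p = 0.226), each with an adjusted p of 0.443. Without the libraries with concentrated reads these turned to 1.07 points (exact permutation p = 0.292), 1.02 points (exact permutation p = 0.289) and 0.0243 points (exact permutation p = 0.911). Within series 1 the last 2 were −1.10 and −0.301 points and within series 2 −2.55 and −0.901 points.

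**Figure D3:**
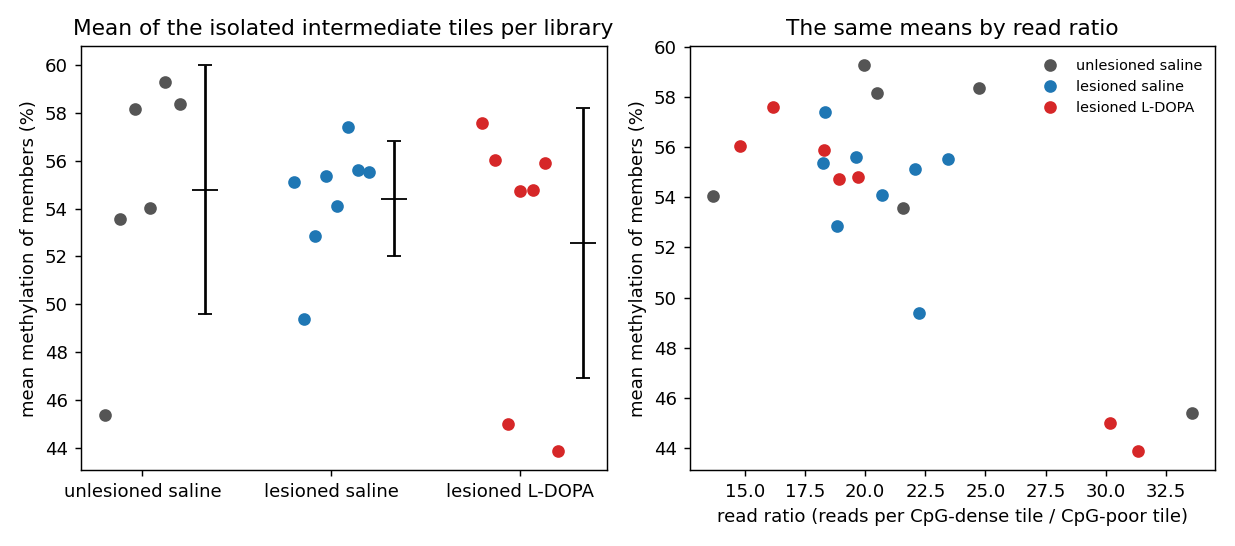
Mean methylation in percent of the isolated intermediate tiles in each of the 21 libraries, by group with the group mean and SD (left; points in order of replicate) and against the read ratio of the library (right); neither axis starts at 0. L-DOPA replicates 3 and 7 and unlesioned replicate 1 sit at 43.9% to 45.4% with read ratios of 30.2 to 33.6, and the other libraries at 49.4% to 59.3%.

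The libraries that stood lowest were low across the tiles. Each lesioned library was set against the mean of the other lesioned libraries without concentrated reads. L-DOPA replicates 3 and 7 lay −9.96 and −11.1 points from that mean, with 84.5% and 84.4% of the tiles lower. In isolated tiles above 80% the same libraries lay −2.80 and −3.03 points away, in isolated tiles under 20% −1.70 and −2.27 points, and in intermediate tiles beside a dense tile −8.60 and −8.90 points. Lesioned saline replicate 2, whose read ratio of 22.2 is within the range of the other libraries, was the next lowest at −6.04 points (74.3% of tiles lower). L-DOPA replicate 1 stood highest among lesioned libraries, at 2.86 points. The median reads per tile of the 3 libraries with concentrated reads, 166 to 174, lay within the range of the others, 96 to 266.

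By level, these deviations in points were largest in the middle of the range. An equal shift in log odds also gives the most points near 50%. The order alone therefore does not show that tiles of middle level shifted more, and another scale was not tested by level. In tiles at 50% to 60% in the lesioned libraries without concentrated reads, L-DOPA replicates 3 and 7 lay −11.9 and −13.3 points away. They lay −7.20 and −8.79 points away in tiles at 20% to 30% and −9.11 and −9.37 points away at 70% to 80%. In the 3 libraries with concentrated reads 11.9% to 16.5% of the tiles were under 20%, against 0.917% to 9.37% in the others.

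**Figure D4:**
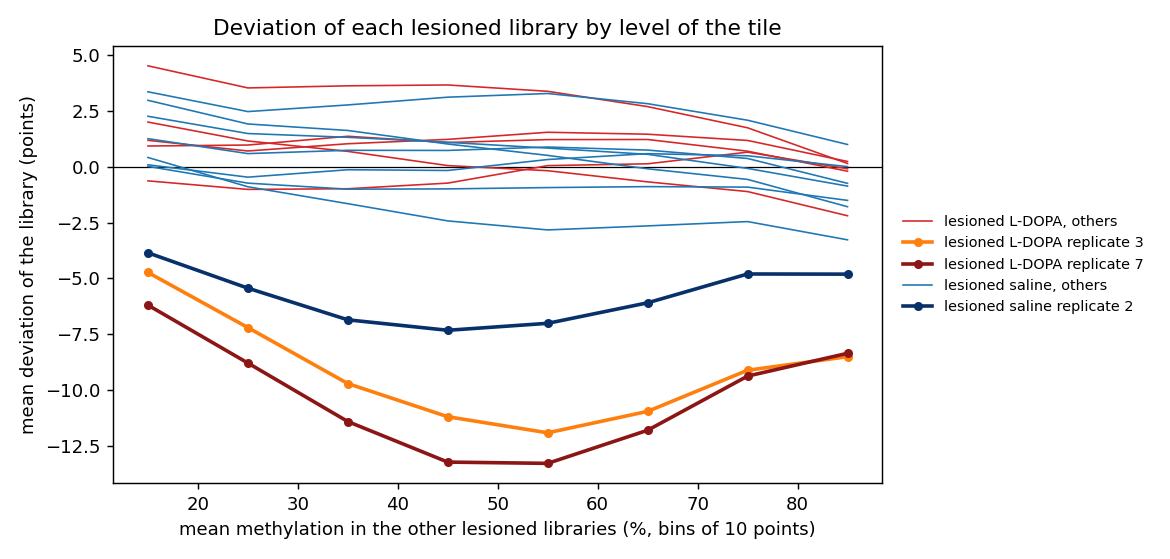
Mean deviation in points of each of the 15 lesioned libraries from the mean of the other lesioned libraries without concentrated reads. Values are shown by that mean in percent in bins of 10 points, over the isolated intermediate tiles. Each line is a library and the line at 0 marks no deviation. L-DOPA replicates 3 and 7 reach −11.9 and −13.3 points at 50 to 60%, lesioned saline replicate 2 reaches −7.32 points at 40 to 50%, and the other 12 libraries stay between −3.27 and 4.52 points.

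The mean over the tiles fell as the read ratio rose, over the 15 lesioned libraries (Pearson r = −0.889, permutation p = 0.000290, adjusted 0.00116 over 4 sets of libraries; Spearman rho = −0.743, permutation p = 0.00229, adjusted 0.00916). Without the 2 libraries farthest from the median read ratio, L-DOPA replicates 3 and 7, r was −0.507 (permutation p = 0.0803) and rho −0.604 (permutation p = 0.0327, adjusted 0.0436), so that the linear relation rests on them. Within series 1 r was −0.882 (n = 9, permutation p adjusted 0.00728) and rho −0.850 (permutation p adjusted 0.0119). Within series 2 r was −0.924 (n = 6, permutation p adjusted 0.0803) and rho −0.600 (permutation p adjusted 0.242). Each series holds 1 of L-DOPA replicates 3 and 7. The part of the read ratio in the group difference was not tested.

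Tile by tile, no isolated intermediate tile passed between L-DOPA and lesioned saline. The quasi-binomial model, a logistic model of methylated and unmethylated reads that lets libraries vary more than reads alone would, called 0 of 34445 (background 0.0% of all 180953 tested tiles) at an adjusted p of 0.05, and limma on log2 odds called 0. At an unadjusted p under 0.05, the quasi-binomial model gave 878 tiles lower under L-DOPA (2.55%, against 2.3% of all tested tiles) and 214 higher (0.621%, against 1.53%), and limma gave 824 in all (2.39%, background 4.01%). The lower share was thus near the background and the higher share below it. The difference had a median of −1.72 points (95% of tiles between −10.2 and 5.83) and was negative in 69.5% of the tiles, beside −0.256 points and 58.3% over all tested tiles. Without the libraries with concentrated reads these counts turned round: 268 were lower (0.778%, background 1.46%), 1234 were higher (3.58%, background 2.89%), and 64.8% of the differences were positive. Without L-DOPA replicate 1 the count of both directions together went from 1092 (3.17%, background 3.83%) to 1845 (5.36%, background 4.92%). Without overdispersion, a model that treats reads as independent and so overstates certainty, 5087 tiles passed at 5 points or more (background 6.3%), 4402 lower and 685 higher, but 739 lower and 3322 higher without the 3 libraries (background 4.96%). No tile kept the groups fully apart, where 0.0243% of all tested tiles did so lower and 0.0227% higher. The median SE of a tile's difference was 4.19 points, against 2.18 points over all tested tiles.

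The 5 tiles of smallest p that were lower under L-DOPA, none of which passed (adjusted p = 1.00, quasi-binomial model), show what differences of this size look like. At chr5:43861751-43862000 (2 CpGs), lesioned saline libraries ran from 64.5% to 72.5% (median 67.6%), L-DOPA libraries from 44.4% to 67.1% (median 53.5%) and unlesioned libraries from 61.8% to 74.4% (median 69.4%). The highest L-DOPA value, that of replicate 1, was the only one of its group within the lesioned saline range; the difference was −14.1 points (SE 2.91). Both CpGs differed in the same direction, 75.8% ± 7.08 against 82.5% ± 4.85 at 43861765 and 15.2% ± 8.90 against 24% ± 9.44 at 43861853. Neither CpG differed by as much as the tile, whose level weights each CpG by its reads. Median reads at 43861765 and 43861853 were 84.5 and 28.5 in lesioned saline and 88 and 51 under L-DOPA. By these medians the lower CpG had a larger share of the reads under L-DOPA. How much of the tile's difference came from that share was not tested.

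At chr6:154044751-154045000 (3 CpGs within 26 bp), lesioned saline libraries ran from 59.8% to 83.3% (median 70.8%) and L-DOPA libraries from 38.4% to 74.5% (median 48.5%), a difference of −19.7 points (SE 5.47). L-DOPA replicate 4 was the only library of its group in the lesioned saline range, and unlesioned libraries lay at 58.3% to 73.9%. All 3 CpGs averaged lower under L-DOPA, 74.8% against 88% at 154044870, 49.9% against 74% at 154044891 and 30.3% against 51.2% at 154044896. In the remaining tiles of this direction the groups also overlapped and the differences were smaller, −5.99 points at chr4:227186501-227186750 (SE 1.39; 17.6% ± 3.23 against 23.6% ± 1.90), −6.98 points at chr11:77127251-77127500 (SE 1.99; 68.2% ± 4.22 against 75.2% ± 3.36) and −8.67 points at chr9:73801751-73802000 (SE 2.26; 41.7% ± 4.18 against 50.4% ± 4.57).

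Among the 5 tiles of smallest p that were higher under L-DOPA, chr7:26714251-26714500 (3 CpGs) differed the most. Lesioned saline libraries ran from 35.2% to 53.5% (median 42.8%), L-DOPA libraries from 50.0% to 83.9% (median 65.1%) and unlesioned libraries from 37.1% to 83.6% (median 60.3%), a difference of 22.2 points (SE 5.09) between the first 2 groups. The groups overlapped through L-DOPA replicate 4 and lesioned saline replicate 7. A median of 88 reads per library stood behind the tile.

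Of the other 4, chr3:167143251-167143500 had the most reads (a median of 780) and ran from 40% to 50.2% in lesioned saline and from 45.9% to 54.4% under L-DOPA, with 6 of 7 L-DOPA libraries above every lesioned saline library (6.55 points, SE 1.63). At chr4:179723251-179723500 the difference was 10.5 points (SE 2.95), at chr20:30953251-30953500 6.14 points (SE 2.81) and at chr5:173079501-173079750 13.5 points (SE 3.69). At chr20:30953251-30953500 lesioned saline replicate 2 stood at 85.4% while the others of its group were at 72.0% or less. None of these 5 tiles passed (adjusted p = 1.00, quasi-binomial model).

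**Figure D5:**
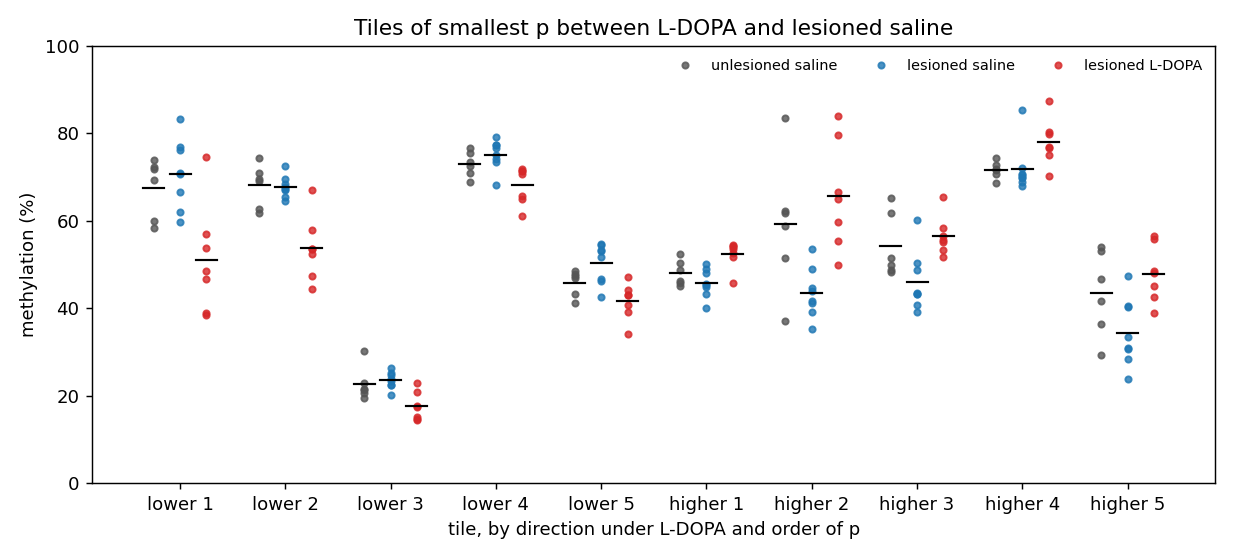
Methylation in percent of the 5 isolated intermediate tiles of smallest p in each direction between L-DOPA and lesioned saline, in order of p; points are libraries of the 3 groups and bars the group means. In each tile the L-DOPA and lesioned saline points overlap, with mean differences of −5.99 to −19.7 points on the lower side and 6.14 to 22.2 points on the higher side, and none passed.

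Set beside the unlesioned libraries, whose levels chose the tiles, the values are given with no test read. Unlesioned libraries averaged 54.8% ± 5.19 over the tiles (lowest 45.4%, median 56.1%, highest 59.3%). Lesioned saline stood at −0.377 points and L-DOPA at −2.24 points from it. Without the libraries with concentrated reads, lesioned saline stood at −2.26 points and L-DOPA at −0.869 points from unlesioned saline. No unlesioned library belongs to series 1, so that no value can be given within it; within series 2 lesioned saline stood at 0.760 points and L-DOPA at −2.47 points from unlesioned saline. Groups were fully apart in 6 tiles lower and 4 higher for lesioned against unlesioned saline (background 0.0624% and 0.0276%) and in 20 lower and 9 higher for L-DOPA against unlesioned saline (background 0.0956% and 0.0492%). The tiles below head the order of the model's p, which served here as an order alone.

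For lesioned against unlesioned saline, the tile chr4:146149251-146149500 (2 CpGs) had lesioned libraries at 37.9% to 54.7% (median 49.0%) and unlesioned ones at 56.8% to 67.9% (median 63.2%), with L-DOPA libraries at 42.3% to 63.4% between and across them. The chr6:62086751-62087000 tile averaged 28.4% ± 6.76 and 44.2% ± 9.22 and the chr16:50090751-50091000 tile 22.2% ± 6.08 and 36.8% ± 6.38. In both, L-DOPA libraries had means close to lesioned saline, 28.8% ± 7.55 and 20.2% ± 5.09. On the higher side, chr14:77043501-77043750 averaged 77.8% ± 3.00 against 66.3% ± 6.35, chr2:145446251-145446500 89.4% ± 5.54 against 70.4% ± 11.4 and chr19:26478251-26478500 75.7% ± 4.57 against 63.6% ± 8.48.

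For L-DOPA against unlesioned saline, chr16:72302751-72303000 (3 CpGs) had L-DOPA libraries at 37.8% to 65.1% (median 57.8%) and unlesioned ones at 66.0% to 77.8% (median 75%), without overlap, and lesioned saline at 53.3% to 69.6%. The other tiles of this direction were chr15:55973501-55973750, at 40.8% ± 13 against 64.1% ± 8.60, and chr1:92439251-92439500, at 56.1% ± 6.30 against 69.6% ± 3.5. In the opposite direction, chr17:14457001-14457250 (2 CpGs, a median of 51 reads) had L-DOPA libraries at 32% to 46% and unlesioned ones at 12.1% to 31.8%, without overlap. The tiles chr4:6805751-6806000 and chr1:4714251-4714500 averaged 73.0% ± 3.66 against 63.3% ± 6.48 and 85.4% ± 2.33 against 79.6% ± 3.73. These comparisons share the unlesioned libraries, whose mean also placed each tile in the set.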

How the data were processed

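Coverage is a count of reads and the methylation a percent of reads with C per cytosine, as the authors deposited them, with at least 10 reads each per the file headers and values; percent and coverage gave whole methylated reads for 100% of cytosines. Bismark 0.13.0, methylKit 0.9.2, SAMtools 0.1.19, Trim Galore 0.3.7, FastQC 0.10.1 and the build rn5 are listed in the submitters' processing notes; libraries were single-end reads of 50 bp per the labels. Total coverage was 59551356 to 164225577 counts per library, with a read able to count at several CpGs.

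Reads were summed over the CpGs of 250 bp tiles, with both strands of a CpG joined, in Python 3.11.15 (numpy 2.4.6, scipy 1.17.1, pandas 2.3.3). Tiles with 2 or more CpGs in at least 5 libraries of each group and pooled methylation of 1% to 99% were tested (180953). The quasi-binomial logistic model covered all 21 libraries, with dispersion moderated by the method of limma's squeezeVar (limma 3.58.1, R 4.3.3) and kept at 1 or above, an F-test on the deviance and Benjamini-Hochberg adjustment over all tested tiles at 0.05. Means per library were compared by exact permutation, and correlations by 100000 resamples.

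Named tiles were the 5 (for comparisons with unlesioned samples 3) of smallest p per direction where fewer than 3 passed, the 3 of largest and smallest SD and (with 4 or more CpGs) CpG range with at least 100 reads in every library, the 3 longest runs, those nearest the level limits and the deepest; 7 more with extreme libraries were chosen after seeing their values. The members, lists and rules were chosen with earlier results of these data known. Alternatives were other read minimums, definitions of the set, scales, tests and libraries left out. No sequence is printed, since no rn5 genome was used here.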

Additional observations from a re-analysis of the deposited data

Results flagged for a closer look

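Of 195 sets of values from 1 group (quantities per library and 59 named tiles), 21 contained a value that lay well apart from the rest. Chance gives about 1 in 20 where sets are not picked by their values, but the tiles were: 9 of the 21 lie in the 10 tiles chosen for extreme libraries or the largest SD, so the total is not read against chance. Of the 18 sets of quantities per library, 2 held such a value. Lesioned saline replicate 2 had a mean CpG range within a tile of 29.4 points, with the next at 27.5, and 9.37% of the isolated intermediate tiles under 20%, with the next at 4.94%. It also stood apart at chr20:30953251-30953500 (85.4%, next 72.0%), chr4:146149251-146149500 (37.9%, next 47.3%), chr3:171182751-171183000 (0%, next 53.6%) and chr3:174564501-174564750 (33.3%, next 72.4%).

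L-DOPA replicate 7 stood apart at chr19:26478251-26478500 (55.6%, next 66.3%), chr6:136549501-136549750 (0%, next 61.0%) and chr8:44728501-44728750 (0%, next 54.3%). Unlesioned replicate 1 was low at chr3:174564501-174564750 (38.1%, next 79.5%) and chr6:136549501-136549750 (53.0%, next 79.9%), where lesioned saline replicate 3 was at 56.6% (next 76.6%). At chr1:252924751-252925000, unlesioned replicate 6 stood at 82.8% (next 12.1%) and L-DOPA replicate 2 at 44.8% (next 12.2%).

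Unlesioned replicate 4 was high at chr4:227186501-227186750 (30.2%, next 22.9%) and chr20:46410501-46410750 (43.7%, next 33%). In the run on chromosome 3, the tile starting at 168474001 was low in unlesioned replicate 5 (60.4%, next 76.3%) and lesioned saline replicate 6 (63.9%, next 77.6%), and in that on chromosome 20 the tile starting at 32176751 was high in lesioned saline replicate 7 (51%, next 39.3%). Single values also stood apart at chr3:167143251-167143500 (L-DOPA replicate 4, 45.9%, next 51.7%) and chr4:6805751-6806000 (lesioned saline replicate 8, 57.9%, next 65.8%). What sets these libraries apart was not tested.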

How the results depend on the processing

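The difference in mean level between L-DOPA and lesioned saline kept its sign in 25 alternatives (exact permutation p = 0.247 to 0.830), was −2.70 to −0.412 points with 1 library left out, and reversed to 1.39 points without the 3 libraries with concentrated reads. Its excess over isolated tiles above 80% was −1.96 to −0.228 points with 1 library left out and reversed to 1.07 points without those 3. Against isolated tiles under 20% and tiles beside a dense tile, it was −2.26 to −0.466 and −0.631 to −0.205 points with 1 library left out, and reversed to 1.02 and 0.0243 points without those 3. The count of called tiles was 0 to 0 with 1 library left out and 0 in all other settings of the quasi-binomial model and limma, but 5087 (14.8%, background 6.3%; 4402 lower, 685 higher) without overdispersion at 5 points or more, and 4061 (background 4.96%; 739 lower, 3322 higher) when the 3 libraries were also left out. The settings of the contrasts with tiles under 20% and beside a dense tile, the model without overdispersion and those 3 libraries, the libraries left out of the span, the unweighted mean over CpGs, and averages over bins of level or CpG number were chosen after seeing the data. The difference in CpG range reversed to 0.145 points when averaged over CpG numbers; the cause was not tested.

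With the replicate number as a block, the difference was −1.70 points (exact permutation p = 0.5), the 3 contrasts −1.15, −1.47 and −0.482 points, and 0 tiles were called. Deviations of libraries with the same number correlated at −0.106 to 0.208, over 0.1 in 3 of 7 pairs, and 1 of 7 L-DOPA libraries correlated best with its own number, so the numbers were not taken as pairs. Depth limits single tiles: 14597 of the 34445 tiles had 100 or more reads in every library.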
